A study of Homo sapiens with 6 samples.

Results

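The IL-18 and IL-1 receptor genes are a small family whose products carry the signals of IL-18, IL-1, IL-33 and IL-36, and 9 of its genes were followed here in NK92 cells, an IL-2-dependent human line derived from an NK cell lymphoma. They were taken by symbol as 9 of the 36601 genes of the count table: the receptor genes IL18R1, IL18RAP, IL1R1, IL1R2, IL1RL1 and IL1RL2, the shared accessory receptor gene IL1RAP, the ligand gene IL18 and the inhibitor gene IL18BP. The genes were chosen with the fold changes of these same libraries known, so the values of the 9 genes are given as a description and without a test. RNA-seq was carried out on cells with stable knockdown of the lncRNA miR155HG (shmiR155HG) and on cells with a control shRNA (shCtrl), with 3 libraries per group. Cells of both groups were stimulated for 12 h, with IL-2 at 1000 U/mL and IL-12 at 10 ng/mL, so no untreated cells and no cells given IL-18 enter the comparison. Separate transductions or cultures for the libraries of a group are not stated in the labels, so the spread between them may be technical. No batch or date is given either.

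IL-18 is made as an inactive precursor, cut by inflammasome caspases and released, and it is known for raising interferon-γ in NK cells together with IL-12. It binds IL18R1, and IL18RAP must then join for a signal to start; IL1R1, IL1RL1 (ST2, which binds IL-33) and IL1RL2 (which binds IL-36) instead share IL1RAP as their second chain. Signals pass through MyD88 and the IRAK kinases, whereas IL1R2 is a decoy without a signaling domain and IL18BP is a secreted protein that keeps IL-18 from its receptor.

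The total count per library lay between 33454786 and 39157264, and 12263 genes passed the filter, set at more than 1 CPM (a count as a share of the library's total) in at least 2 libraries. MIR155HG, the gene targeted by the shRNA, had 73, 67 and 62 counts in the shCtrl libraries and 28, 19 and 10 in the shmiR155HG libraries. The edgeR quasi-likelihood test gave it a log2 fold change of −1.78 with an SE of 0.43 and an adjusted p of 0.0045. It entered that test only through the shCtrl libraries, since all shmiR155HG libraries were under 1 CPM. As a check of the cell line, 10 of 11 NK cell markers were above 1 CPM, with a summed level of 3000 to 3080 CPM in shCtrl and 2270 to 2360 CPM in shmiR155HG cells, and GZMB made up most of this gap (1200 and 543 CPM). Of the T cell markers only CD3E and TRAC, of the B cell markers only PAX5, and of the myeloid markers only CSF1R, ITGAM and CD68 passed 1 CPM. The mean level of PAX5 was 244 CPM in shCtrl and 342 CPM in shmiR155HG cells, and the summed myeloid markers ran from 21.4 to 29.3 CPM and from 15.8 to 21.8 CPM. The summed T cell markers ran from 398 to 409 CPM and from 400 to 417 CPM. Among 8 markers of mast cells and type 2 innate lymphoid cells, which are known for IL1RL1, only TPSAB1 did so, and CPA3 and HPGDS were at 0 in all 6 libraries. The summed level of these 8 markers was 2.16 to 2.99 CPM in shCtrl and 2.55 to 3.34 CPM in shmiR155HG cells. The part of these marker levels in the results was not tested.

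The 6 receptor genes lie side by side on chromosome 2 (101991960 to 102452565 in hg38, a span of 460.6 kb), all on the plus strand. The order is IL1R2, IL1R1, IL1RL2, IL1RL1, IL18R1 and IL18RAP. IL1R1 ends 7131 bp before IL1RL2 begins, and 19911 bp separate IL18R1 from IL18RAP. The bodies of IL1RL1 and IL18R1 overlap in the GENCODE annotation, but their exons share only 95 nt, which is 2.11% of the exon length of IL18R1. The other 3 genes lie elsewhere: IL1RAP on chromosome 3 (190514051 to 190659750, plus strand), IL18 on chromosome 11 (112143253 to 112164096, minus strand) and IL18BP also on chromosome 11 (71998613 to 72007315, plus strand).

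The sequences directly before IL18R1 and IL18RAP are shown because these neighbouring genes encode the chains of 1 receptor and had the lowest fold changes of the 4 family genes that passed the filter. They are the 250 bases before the first RefSeq start of each gene in GRCh38.p14, at chr2:102355546-102355795 and chr2:102418371-102418620 on the plus strand, and neither window holds annotated exon. In GENCODE the body of IL18R1 already begins at 102311529, so its window lies in an intron of longer transcripts, while the IL18RAP window ends before its annotated body begins, at 102418689. Capitals mark matches on either strand to 5 short motifs, which were chosen after the sequences were seen.
IL18R1: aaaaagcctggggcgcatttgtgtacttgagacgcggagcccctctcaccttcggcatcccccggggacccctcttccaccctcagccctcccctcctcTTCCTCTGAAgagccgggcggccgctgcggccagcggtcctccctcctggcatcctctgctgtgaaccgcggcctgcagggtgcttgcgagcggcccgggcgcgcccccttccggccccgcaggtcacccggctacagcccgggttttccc
IL18RAP: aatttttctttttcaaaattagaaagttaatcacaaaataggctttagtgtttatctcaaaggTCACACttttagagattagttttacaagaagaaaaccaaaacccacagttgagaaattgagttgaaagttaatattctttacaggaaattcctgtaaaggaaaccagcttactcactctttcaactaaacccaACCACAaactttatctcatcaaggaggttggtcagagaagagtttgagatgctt
The windows differ in composition, with a GC content of 70.4% for IL18R1 and 32.4% for IL18RAP. The motifs, with N for any base, were TTCNNNGAA and its form with 4 free bases between TTC and GAA (both for STAT factors), TGANTCA (AP-1), TCACAC (T-box factors) and TGTGGT (RUNX factors). The IL18R1 window held 1 match to the form with 4 free bases, which 5.38% of 35116 RefSeq promoters of the same length hold. The IL18RAP window held 1 match to TCACAC (9.9% of promoters) and 1 to TGTGGT, read on the minus strand (11% of promoters). TTCNNNGAA and TGANTCA, each in 6.57% of promoters, had no match in these windows. The window before the next RefSeq start of IL18RAP, at chr2:102418399-102418648, overlapped the one shown and held the same matches. Windows before other later starts of both genes differed in their matches. The canonical transcript of IL18RAP starts at 102423160, and the window before it held 1 match to TCACAC and none to TGTGGT. A later window of IL18R1, which lies in annotated exon, held 1 match to TCACAC and none to the STAT motifs. A window of IL1RL1 and a window of IL18BP also held matches to both TCACAC and TGTGGT. No matches overlapped each other, and a match is a feature of the letters alone.

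The transcript targeted by the shRNA is also the precursor of miR-155, so the 3′UTRs of the 9 genes were searched for its site. The mature sequence from RefSeq, at chr21:25573983-25574006 on the plus strand, is given with the seed (bases 2 to 8) in capitals.
hsa-miR-155-5p: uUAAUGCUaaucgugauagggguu
The matching 7-base site, AGCATTA, was found in the 3′UTR of 2056 of 18920 genes (10.9%). None of the canonical 3′UTRs of the 9 family genes held it, including those of IL18R1 (1890 nt) and IL18RAP (384 nt). Other forms of the site and other transcripts of these genes were not searched, and nothing is read from this absence. Levels of miR-155 itself were not measured in these libraries.

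IL18RAP (ENSG00000115607, 10 exons), the signal-completing chain of the IL-18 receptor, was counted 575, 565 and 546 times in shCtrl and 168, 218 and 193 times in shmiR155HG libraries (replicates 1 to 3, an order kept throughout). In normalized CPM these were 14.8, 15.5 and 14.01 against 4.38, 5.73 and 5.77. Every shmiR155HG library lay far below every shCtrl library, and the gap between the groups was wider than the spread within either. The mean was 14.8 ± 0.74 CPM in shCtrl and 5.29 ± 0.79 CPM in shmiR155HG cells (SD, n = 3 each), or 35.9% of the shCtrl level. The log2 fold change was −1.48 (SE 0.15), the 20th lowest of the 12263 genes tested. In bulk RNA, fewer cells with a transcript and less transcript per cell cannot be told apart.

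IL18R1 (ENSG00000115604, 11 exons), the chain that binds IL-18, had 2610, 2179 and 2518 counts in the shCtrl libraries and 1443, 1504 and 1221 counts in the shmiR155HG libraries. The corresponding levels were 67.1, 59.7 and 64.6 CPM and 37.6, 39.5 and 36.5 CPM. Here too the groups did not overlap, and the highest shmiR155HG library stayed well under the lowest shCtrl library. The mean was 63.8 ± 3.74 CPM in shCtrl and 37.9 ± 1.52 CPM in shmiR155HG cells (SD, n = 3 each), or 59.4% of the shCtrl level. The log2 fold change was −0.75 (SE 0.069), which only 0.987% of the genes tested went below.

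The transcripts of both chains of the IL-18 receptor were therefore lower in shmiR155HG cells, and IL18RAP had the lower fold change of the pair. Per kilobase of exon, the ratio of IL18R1 to IL18RAP was 2.99, 2.54 and 3.04 in the shCtrl libraries and 5.66, 4.55 and 4.17 in the shmiR155HG libraries. This ratio did not overlap between the groups, with means of 2.86 ± 0.28 and 4.79 ± 0.78 (SD, n = 3 each). Leaving out 1 library at a time gave log2 fold changes from −1.54 to −1.36 for IL18RAP and from −0.80 to −0.71 for IL18R1.

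**Figure D1:**
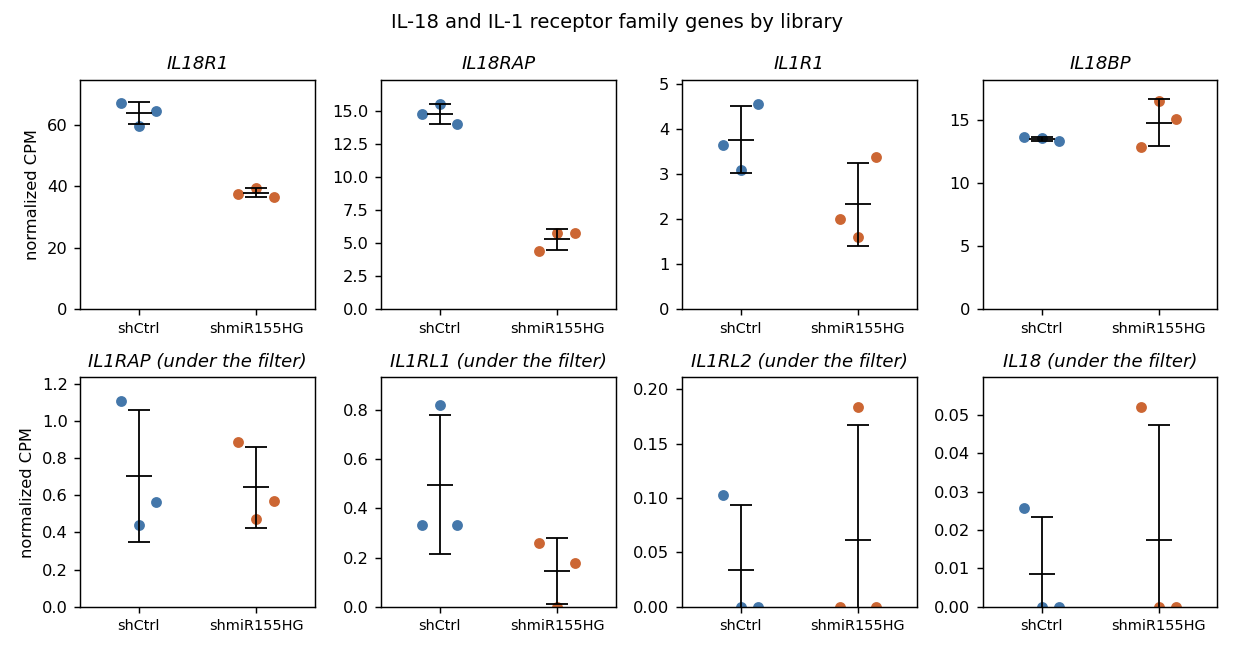
Normalized CPM (y axis, from 0, with a scale of its own in each panel) of 8 family genes in the 3 shCtrl (blue) and 3 shmiR155HG (orange) libraries, with bars for the mean and SD. IL18R1 and IL18RAP separate without overlap, IL1R1 and IL18BP overlap, and the lower row holds genes with too few counts to pass the filter; IL1R2, at 0 in all 6 libraries, is not drawn.

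IL1R1 (ENSG00000115594, 12 exons), the signaling receptor of IL-1, had 142, 113 and 178 counts in the shCtrl libraries and 77, 61 and 113 in the shmiR155HG libraries. In CPM, 3.65, 3.10 and 4.57 stood against 2.01, 1.60 and 3.38. Of the shmiR155HG libraries, replicates 1 and 2 lay below all shCtrl libraries, whereas replicate 3 lay above the lowest of them. Means of 3.77 ± 0.74 CPM in shCtrl and 2.33 ± 0.93 CPM in shmiR155HG cells (SD, n = 3 each) gave a log2 fold change of −0.70 (SE 0.30). Single libraries moved this value: it was −1.06 if shmiR155HG replicate 3 was left out, −0.49 if shmiR155HG replicate 2 was, and −0.54 if shCtrl replicate 3 was.

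The other receptor genes had few counts or none. IL1RL1 (ENSG00000115602, 11 exons), which encodes the IL-33 receptor, had 13, 30 and 13 counts in the shCtrl libraries and 10, 0 and 6 in the shmiR155HG libraries, 56 against 16 counts in all. Each shmiR155HG library was below each shCtrl library, but by as little as 3 counts. Fitted without the filter, its log2 fold change was −1.74 with an SE of 0.98. IL1RL2 (ENSG00000115598, 12 exons), the IL-36 receptor gene, had 4 counts in shCtrl replicate 1 and 7 counts in shmiR155HG replicate 2, and 0 in the other libraries. IL1R2 (ENSG00000115590, 9 exons), the decoy receptor gene, had 0 counts in all 6 libraries; a count of 0 allows up to 3 counts, or 0.077 to 0.0897 CPM depending on the library, for counting error alone.

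IL1RAP (ENSG00000196083), the accessory chain that the IL-1, IL-33 and IL-36 receptors share, had 43, 16 and 22 counts in the shCtrl libraries and 34, 18 and 19 in the shmiR155HG libraries. The groups overlapped throughout, and replicate 1 was the highest in both. The fit without the filter gave a log2 fold change of −0.13 (SE 0.59), an error too wide to place a change in either direction.

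The ligand gene IL18 (ENSG00000150782) had 1 count in shCtrl replicate 1, 2 counts in shmiR155HG replicate 1 and 0 in the other libraries, at or under the floor of 3 counts in each. The inhibitor gene IL18BP (ENSG00000137496) was well measured, with 530, 495 and 519 counts in the shCtrl libraries and 492, 628 and 503 in the shmiR155HG libraries. Its levels were 13.6, 13.6 and 13.3 CPM against 12.8, 16.5 and 15.04 CPM. The shCtrl libraries were nearly equal, and the shmiR155HG libraries spread on both sides of them. Means of 13.5 ± 0.16 CPM in shCtrl and 14.8 ± 1.85 CPM in shmiR155HG cells (SD, n = 3 each) gave a log2 fold change of 0.13 (SE 0.13), which was 0.044 without shmiR155HG replicate 2, 0.22 without shmiR155HG replicate 1 and 0.060 with a correction for GC content. The exons of IL18BP share 1031 nt, 17.6% of their length, with NUMA1 on the opposite strand. If counting did not use the strand, reads of NUMA1, whose own log2 fold change was −0.006 (SE 0.044, adjusted p = 0.954, edgeR quasi-likelihood test), could have entered this count.

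The transcript level of the inhibitor relative to that of the binding chain also differed between the groups. Per kilobase of exon, the ratio of IL18BP to IL18R1 was 0.156, 0.175 and 0.159 in the shCtrl libraries and 0.262, 0.321 and 0.317 in the shmiR155HG libraries. Its mean was 0.163 ± 0.010 and 0.30 ± 0.033 (SD, n = 3 each), without overlap. Both ratios contain values by which the genes were chosen and were not tested.

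Levels were compared between genes as CPM per kilobase of merged exon. IL18R1 was the highest of the 9 genes in shCtrl cells, at 14.2 ± 0.83 CPM per kb (SD, n = 3), higher than 71.3% of the genes tested. IL18RAP followed at 4.98 ± 0.25, IL18BP at 2.31 ± 0.028 and IL1R1 at 0.53 ± 0.10 CPM per kb, steps that each exceeded the spread between libraries. Next came IL1RL1 at 0.086 ± 0.049 and IL1RAP at 0.063 ± 0.032 CPM per kb, neighbours that did not differ beyond their spread and that changed places when the longest transcript was used as the length. IL1RL2 (0.013), IL18 (0.0033) and IL1R2 (0) closed the order and could not be ranked at this depth. In shmiR155HG cells, IL18R1 was at 8.42 ± 0.34 CPM per kb (SD, n = 3), while IL18BP, at 2.53 ± 0.32, stood above IL18RAP, at 1.78 ± 0.27. The order of IL18RAP and IL18BP in shCtrl cells depends on the length used. Merged exons measure 2966 nt for IL18RAP and 5851 nt for IL18BP, but their canonical transcripts measure 2302 and 1697 nt. Reads of NUMA1, if counted without the strand, could also have entered the level of IL18BP. The receptors of the cytokines given to the cells were at 7.29 (IL2RA), 11.5 (IL12RB1), 12.8 (IL12RB2), 115 (IL2RG) and 138 CPM per kb (IL2RB) in shCtrl cells, so IL18R1 was near the IL-12 receptor chains.

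**Figure D2:**
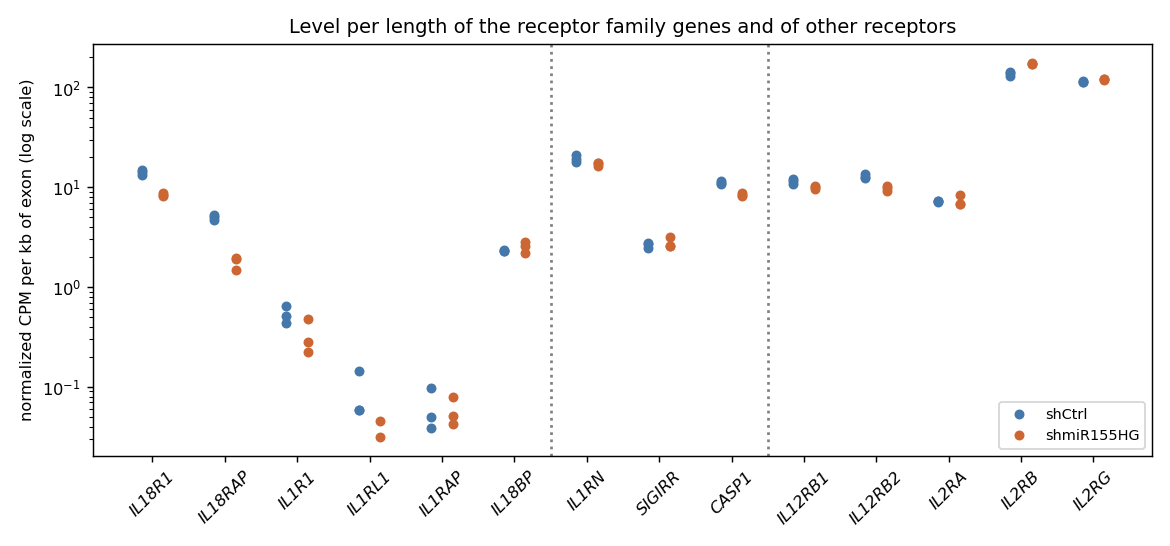
Normalized CPM per kilobase of merged exon (y axis, log scale) in each shCtrl (blue) and shmiR155HG (orange) library for 6 family genes, for IL1RN, SIGIRR and CASP1 of the same pathway, and for the receptors of IL-2 and IL-12; each point is a library, and a library at 0 (IL1RL1, shmiR155HG replicate 2) cannot be drawn. IL18R1 lies near the IL-12 receptor chains, and IL1RL1 and IL1RAP lie about 2 orders of magnitude lower.

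Of the 9 genes, 8 had a count in some library and 4 passed the filter. Of these 4, IL18R1 and IL18RAP lay lower in shmiR155HG cells without overlap between the groups, as did 15.6% of the 12263 genes tested, and none lay higher without overlap, as did 15.2%. Because the genes were chosen by this contrast, nothing is read from that count. The 5th and 95th percentiles of all log2 fold changes were −0.37 and 0.49, with a median of 0.001, so IL18RAP, IL18R1 and IL1R1 lay below these limits and IL18BP lay within them. Fold changes varied with GC content in these libraries, and its part in the values of the family was not tested. Genes within 1 percentage point of the GC content of IL18RAP (938 genes) had a median log2 fold change of −0.017, and those like IL18R1 (1056 genes) had −0.046. With a GC correction, chosen after seeing the data, IL18RAP was at −1.46, IL18R1 at −0.72 and IL1R1 at −0.69.

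The genes with the pattern most like that of IL18RAP were sought by the root mean square difference of log2 CPM, each centred on its shCtrl mean, over the 6 libraries and among the 9721 genes averaging 5 CPM or more. They were RAB6A (difference 0.169, log2 fold change −1.30), which encodes a Golgi GTPase, ASIC1 (0.216, −1.67), a proton-gated ion channel gene, COL16A1 (0.265, −1.28), a collagen gene, GZMB (0.279, −1.14), which encodes granzyme B, and KIR3DL3 (0.322, −1.10), a KIR family receptor gene. For IL18R1 they were CLU (0.057, −0.71), which encodes clusterin, LMNA (0.061, −0.71), the lamin A gene, TLL1 (0.064, −0.73), a metalloprotease gene, STAG3 (0.078, −0.69), a meiotic cohesin gene, and PTGER3 (0.082, −0.71), a prostaglandin E2 receptor gene. IL18R1 and IL18RAP themselves were 0.533 apart by this measure, which largely restates the gap between their fold changes. The 10 genes were picked as the nearest to their targets, so this distance is not compared with theirs. KIR3DL3 belongs to a family of close paralogs, among which reads may be divided.

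The genes within 500 kb of the receptor cluster were examined as well. The table held 13 genes there besides the receptors, of which 6 had no count in any library and 3 passed the filter. These 3 are too few to show whether the region as a whole differed. MAP4K4, a kinase gene on the IL1R2 side, was at 0.11 on the log2 scale (SE 0.057, adjusted p = 0.204, edgeR quasi-likelihood test). Its shmiR155HG libraries all lay above its shCtrl libraries, as was so for 15.2% of the genes tested. Beyond IL18RAP, MFSD9, a transporter family gene, was at 0.01 (SE 0.072, adjusted p = 0.936, same test) and TMEM182 at −0.24 (SE 0.18, adjusted p = 0.418, same test). None of the 3 passed the quasi-likelihood test of edgeR, 0 had an unadjusted p under 0.05, and 0 were called in any of 14 alternative settings, DESeq2 and the exact test included. SLC9A4, the gene next to IL18RAP, had no counts. Inside the introns of IL18RAP, the lncRNA AC007278.2 had 8, 24 and 27 counts in the shCtrl libraries and 11, 5 and 0 in the shmiR155HG libraries, and AC007278.1 had 13, 10 and 14 against 21, 2 and 6. Both were under the filter, both overlapped between the groups, and neither shares exon bases with IL18RAP. They lie on the same strand as IL18RAP, and whether its unspliced RNA entered their counts was not tested.

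**Figure D3:**
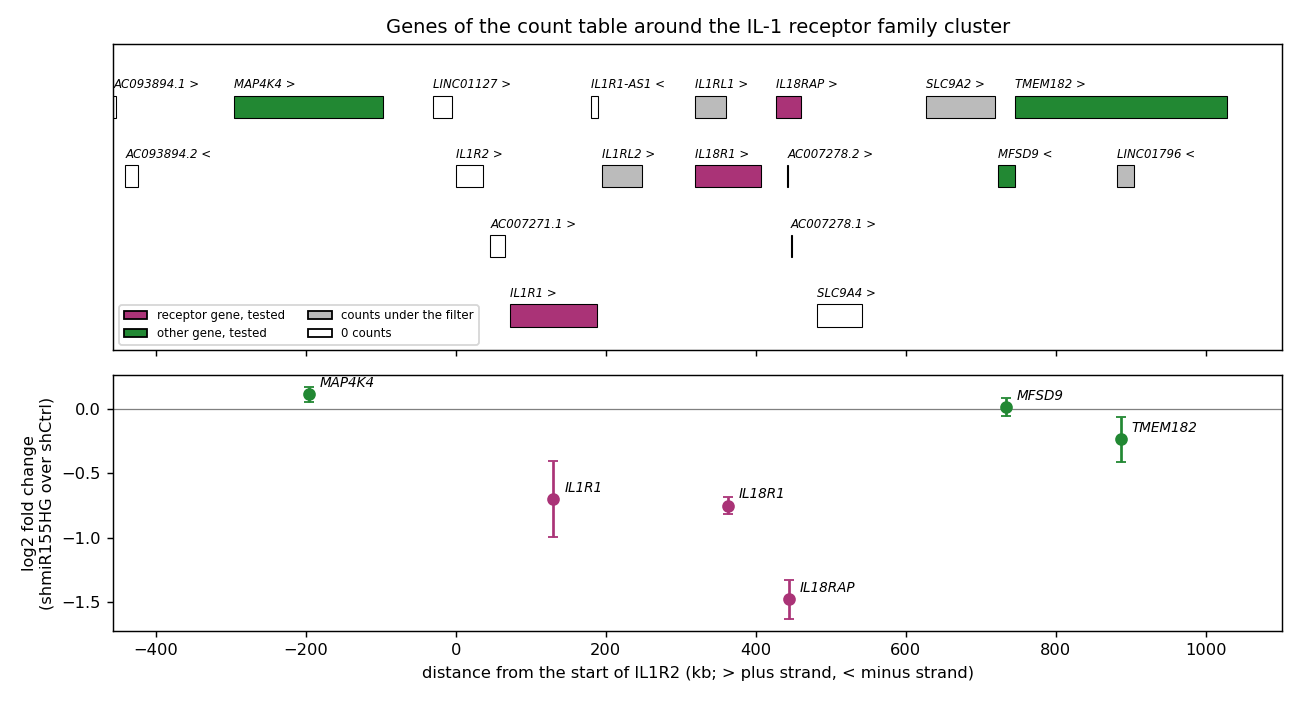
Upper panel, the genes of the count table around the receptor cluster, drawn to scale by distance from the start of IL1R2 (x axis, kb) and coloured by whether they passed the filter. Lower panel, the log2 fold change (y axis, shmiR155HG over shCtrl; bars, SE) of the genes that passed: IL1R1, IL18R1 and IL18RAP lie between −1.48 and −0.70, and the flanking MAP4K4, MFSD9 and TMEM182 between −0.24 and 0.11. The receptor genes were chosen with their fold changes known, so this contrast was not tested.

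The other genes of the pathway were taken as a list by name, drawn up with earlier results of these data known. Of the listed genes, 36 were in the table, 10 of them without a count, and 19 passed the filter. Adjusted over all genes tested, 2 of the 19 were called lower, 2 were called higher and 15 were not called at 0.05, beside 8.02% lower, 7.26% higher and 15.3% in either direction among all genes. Their median log2 fold change was −0.02, against 0.001 for all genes. Among those called lower, PELI2 passed the filter only through the shCtrl libraries. None of the 6 genes for ligands that activate the receptors (IL1A, IL1B, IL33 and the IL-36 genes) passed the filter. IL1A, with 3, 6 and 20 counts in the shCtrl libraries and 0, 0 and 3 in the shmiR155HG libraries, was one of them. The antagonist gene IL1RN, which blocks IL1R1, was abundant by contrast, at 72.7 ± 5.6 CPM in shCtrl and 64.1 ± 2.56 CPM in shmiR155HG cells (SD, n = 3 each). Its log2 fold change of −0.18 (SE 0.064) did not pass the test (adjusted p = 0.0562, edgeR quasi-likelihood). Its shmiR155HG libraries all lay below its shCtrl libraries, as was so for 15.6% of the genes tested. SIGIRR, an inhibitory receptor of the family, was at 0.07 (SE 0.15, adjusted p = 0.823, same test).

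Of the 6 tested genes that process the ligands, CASP1, the caspase that cuts the IL-1β and IL-18 precursors, fell. It had 1651, 1657 and 1694 counts in the shCtrl libraries and 1248, 1316 and 1105 in the shmiR155HG libraries, with no overlap. On the log2 scale it fell by 0.39 (SE 0.074, adjusted p = 0.000401, edgeR quasi-likelihood test). The inflammasome sensor genes AIM2 (−0.26, SE 0.13, adjusted p = 0.172), NLRP1 (0.36, SE 0.14, adjusted p = 0.0722) and NLRC4 (0.51, SE 0.42, adjusted p = 0.476) did not pass the same edgeR test.

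Of the 11 tested adaptor and kinase genes, 1 fell and 2 rose. PELI2, a ubiquitin ligase gene of the IRAK complex, had 69, 62 and 85 counts in the shCtrl libraries and 35, 10 and 4 in the shmiR155HG libraries. It fell by 2.10 on the log2 scale (SE 0.50, adjusted p = 0.00418, edgeR quasi-likelihood test). It entered the test only through the shCtrl libraries, since all shmiR155HG libraries were under 1 CPM. Its value rested on few counts and ran from −3.26 to −1.67 when single libraries were left out. TOLLIP, which restrains IRAK signaling, rose from 31.7 ± 1.04 to 42.2 ± 2.71 CPM (SD, n = 3 each), or by 0.41 on the log2 scale (SE 0.077, adjusted p = 0.000385, same test). IRAK1 rose by 0.16 (SE 0.035, adjusted p = 0.00136, same test), a call that was lost with the GC correction (0.056, adjusted p = 0.311). For MYD88, the adaptor of the whole family (−0.11, SE 0.053, adjusted p = 0.163), IRAK4 (−0.17, SE 0.081, adjusted p = 0.175) and TRAF6 (0.0078, adjusted p = 0.982), the log2 fold change did not pass the edgeR test.

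Among the receptors of the cytokines given to the cells, IL12RB2 fell by 0.39 on the log2 scale (SE 0.058, adjusted p = 1.8e-05, edgeR quasi-likelihood test), and IL2RB rose by 0.34 (SE 0.032, adjusted p = 1.35e-08, same test). IL12RB1 (−0.20, SE 0.069, adjusted p = 0.0519), IL2RG (0.07, SE 0.034, adjusted p = 0.171) and IL2RA (0.01, SE 0.092, adjusted p = 0.954) did not pass. The value of IL18R1 lay below all 5 of these, and that of IL18RAP lay lower still. Both genes were chosen with their fold changes known, so these differences were not tested and nothing is read from them.

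**Figure D4:**
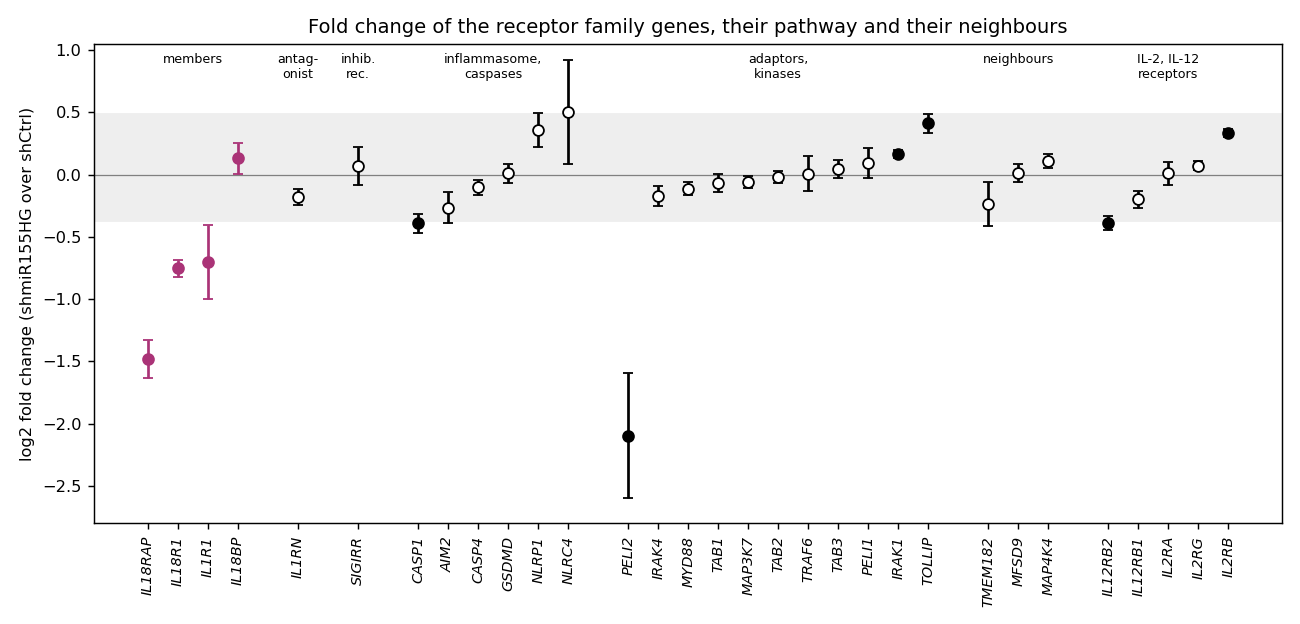
Log2 fold change (y axis, shmiR155HG over shCtrl; bars, SE) of the 4 family genes that passed the filter (purple, not tested) and of other pathway genes, neighbours and receptors for IL-2 and IL-12, filled where the adjusted p was under 0.05 and open where it was not; antag-onist stands for IL1RN and inhib. rec. for the inhibitory receptor SIGIRR. The grey band spans the 5th to 95th percentile of all genes tested, from −0.37 to 0.49, and IL18RAP, IL18R1, IL1R1, CASP1, IL12RB2 and PELI2 lie below it.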

How the data were processed

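RNA-seq libraries of NK92-shCtrl and NK92-shmiR155HG cells (n = 3 each) were made from poly(A) RNA and sequenced as 150 bp pairs. Reads were mapped by the authors (HISAT2, hg38) and assigned with StringTie (-e), and the deposited values are raw counts per gene from prepDE.py3. That tool derives counts from coverage and an assumed read length, so a count need not be 1 read. The annotation release, strandedness and tool versions are not given in the sources used here. Groups were taken from the titles, because for shmiR155HG replicates 2 and 3 another gene number stands in the treatment labels.

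Genes were tested with edgeR 4.0.16 in R 4.3.3 (TMM, robust quasi-likelihood test, Benjamini-Hochberg over 12263 genes, threshold 0.05), after the filter of the study's methods. The p-values measure only the spread between these libraries. The test was checked on simulated counts with large changes only. Positions, exons and 3′UTRs came from GENCODE 44, which matched 99.4% of gene IDs, and sequences from RefSeq.

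The 9 genes, the pathway lists and the motifs were chosen with earlier results of these data known. Named genes were all 9, MIR155HG, called pathway and neighbour genes, and the 5 most alike to IL18RAP and to IL18R1. Pathway genes that were not called, the receptors for IL-2 and IL-12, NUMA1 and the intronic lncRNAs were named outside this rule. Alternatives covered scaling, filter, test (DESeq2 1.42.0, exact test), replicate block, gene length, each library left out and a GC correction.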

Additional observations from a re-analysis of the deposited data

How the results depend on the processing

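Over 14 alternatives, the log2 fold change ran from −1.54 to −1.36 for IL18RAP, from −0.80 to −0.71 for IL18R1, from −1.06 to −0.49 for IL1R1 and from 0.044 to 0.22 for IL18BP. Over the whole table, the edgeR quasi-likelihood test called 1874 genes (984 lower, 890 higher), whereas the exact test with an unadjusted p under 0.01 and a fold over 1.2 called 1017 (466 lower, 551 higher). Leaving out single libraries gave 1254 to 1808 calls, with 674 to 917 lower and 580 to 891 higher, the last of these lowest without shmiR155HG replicate 2. With the GC correction, 4 pathway genes were lower in place of 2. IRAK1 was not called by the exact test (0.16) or with the GC correction (0.056), and IL12RB1 was called lower by DESeq2 (−0.20) and with the GC correction (−0.29). IL2RA ranged from −0.098 (without shmiR155HG replicate 1, the opposite sign) to 0.067 (without shmiR155HG replicate 3) when single libraries were left out. By the longest transcript, IL1RAP took place 5 and IL1RL1 place 6 in the order of levels. IRAK1 was at 112% of its shCtrl level, under the fold of 1.2 that the exact test setting also required. The order of levels depends by construction on the length used. The cause of the other shifts was not tested. The main test did not pair the libraries by replicate number. Deviations of same-numbered libraries from their group means correlated at −0.018 to 0.0035 over the genes tested. These values cannot tell whether such libraries were prepared together. With the replicate block, 1738 genes were called (909 lower, 829 higher), 4 pathway genes and 0 neighbours. IL18RAP was then at −1.49, IL18R1 at −0.75, IL1R1 at −0.74 and IL18BP at 0.12. Depth limits IL1RL1, IL1RL2, IL1RAP and IL18, which had at most 43 counts in a library.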
